A study of Mus musculus with 24 samples.

Results

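The 10 genes described here are the Toll-like receptor genes *Tlr1*, *Tlr2*, *Tlr3*, *Tlr4*, *Tlr7* and *Tlr9*, the lipopolysaccharide (LPS) co-receptor genes *Cd14* and *Ly96*, and the adaptor genes *Myd88* and *Ticam1*. They were chosen by name, as the entries of 6 deposited comparison tables whose gene name equals that of a member, and they are 10 of the 24411 genes in those tables. Toll-like receptors sense molecules of microbes and of damaged cells. TLR4 binds LPS at the cell surface together with MD-2, the product of *Ly96*, and CD14 hands LPS to that complex, while TLR2 pairs with TLR1 or TLR6 to bind lipopeptides and TLR3, TLR7 and TLR9 bind nucleic acids inside endosomes. MyD88 carries the signal of every Toll-like receptor except TLR3 towards NF-κB and cytokine genes, TRIF, the product of *Ticam1*, carries that of TLR3 and TLR4 towards interferon genes, and microglia are the brain cells best known for these receptors.

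RNA of cultured mouse astrocytes and microglia was measured by bulk RNA-seq in 21 libraries, 3 in each of 7 conditions. With these cultures the study asked whether changes that a mutant SOD1 transgene makes within glia interact with the activation of astrocytes. Of the 24 samples of the series, the 3 of quiescent SOD1G93A microglia have no column in the tables and were not analysed here. WT microglia were either quiescent, treated with PBS alone, or activated with LPS at 50 ng/ml, and SOD1G93A microglia were activated with LPS at the same dose. WT astrocytes and SOD1G93A astrocytes were each either quiescent, with PBS alone, or activated with a mix of 3 ng/ml IL-1α, 30 ng/ml TNFα and 400 ng/ml C1q. SOD1G93A mice carry a mutant human SOD1 transgene beside their own *Sod1* gene and had been bred into C57BL/6J. Astrocytes were bound to HepaCAM antibody after cells carrying CD45, the lectin ligand of endothelial cells or O4 had been removed, from cortices of young pups, and grew without serum in medium with HBEGF. Microglia were collected with Cd11b beads from perfused brains of slightly older pups and grew without serum in medium with TGF-β2, IL-34 and cholesterol. The sorting and the medium thus differ together with the cell type, cultured glia of pups are a limited model of glia in an adult spinal cord, and the labels give no sex, litter, culture or animal for a library.

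Values of a comparison are normalized counts, reads divided by the size factor that the authors gave each library within that comparison. Levels across conditions are CPM, a gene's reads scaled by the total of its library, or RPKM, the same per kilobase of exon, where genes are compared, both from whole reads recovered from the tables. Libraries held 2016139 to 11570122 reads on genes (median 5098168). A count of 0 allows up to 3 reads, for counting error alone. Tests were made with limma across all genes, with Benjamini-Hochberg adjustment. A gene was called at an adjusted p under 0.001 and a change over 2-fold, and a wider rule took an adjusted p under 0.05 at any fold. With 3 libraries against 3, an exact permutation test of a single gene cannot go under 0.1, so only the p values of the model are given. They measure the spread between these libraries alone, since the labels do not say whether libraries of a group came from separate cultures or animals.

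Some libraries stood apart from the other two of their condition. SOD1G93A LPS microglia replicate 3 differed by more than 2-fold from the mean of the others in 216 of 9041 genes (2.39%), the highest share of the 21 libraries. WT LPS microglia replicate 1 did so in 93 of 9034 genes (1.03%), WT quiescent astrocyte replicate 1 in 87 of 11049 genes (0.787%) and WT quiescent astrocyte replicate 3 in 84 (0.760%), whereas the rest had at most 44 such genes. In SOD1G93A LPS microglia replicate 3 the microglia marker *Csf1r* stood at 1282 CPM, against 845 and 817 in replicates 1 and 2. The interferon-induced gene *Rsad2* stood at 342 CPM there, against 1356 and 1531.5.

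The cell type labels were checked against marker genes. The 14 microglia markers summed to 10988, 11494 and 10808 CPM in the quiescent microglia, with *Csf1r* the most abundant in each, and none of them was at 0. The 10 astrocyte markers summed to 4158 to 6228 CPM in the 12 astrocyte libraries, with *Slc1a3* the most abundant, and to 139 to 233 in the 9 microglia libraries. The microglia markers summed to 311 to 554 CPM in the astrocyte libraries. The most abundant of them in each was *Sall1* (138 to 190), which the 4 astrocyte conditions held at 128% to 149% of the level of quiescent microglia, so it did not separate these cells. Markers of the oligodendrocyte lineage summed to a mean of 1317 CPM in WT quiescent microglia, *Cspg4* the most abundant. Their mean sum was 83.9 in WT LPS and 164 in SOD1G93A LPS microglia, and astrocyte libraries held 147 to 243. Microglia and astrocytes thus carried the markers of their labels, with a low level of microglia markers in the astrocyte cultures and with oligodendrocyte lineage markers in the quiescent microglia. What cells these came from was not tested. In such bulk samples, fewer cells of a type and less RNA per cell cannot be told apart.

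Quiescent microglia held far more RNA of *Cd14* per kilobase than of *Tlr4* and *Ly96*, the other genes of the LPS receptor complex. In WT quiescent microglia *Cd14* led the 10 genes at 561 ± 22.3 RPKM (mean and SD of 3 libraries). *Tlr2* (139 ± 4.60) and *Tlr7* (97.2 ± 4.91) came next on that scale, each apart from its neighbours. *Ticam1* (20.2 ± 1.85), *Myd88* (17.3 ± 1.29) and *Tlr9* (16.4 ± 0.613) followed, and each overlapped the next within its spread. *Tlr4* stood at 8.25 ± 0.340 RPKM, above *Ly96* (6.83 ± 0.150) and *Tlr3* (6.48 ± 0.702), which overlapped each other. *Tlr1* was lowest at 2.27 ± 0.237.

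After LPS the order of the levels changed below the top. In WT LPS microglia, *Cd14* reached 2688 ± 126 RPKM, *Tlr2* 439 ± 13.5 and *Tlr7* 73.4 ± 13.4, still the upper 3 of the 10 genes. *Myd88* (49.2 ± 1.61) and *Tlr1* (32.1 ± 0.921) now stood above *Ticam1* (20.6 ± 0.839) on this scale, which overlapped *Ly96* (18.3 ± 3.16), and *Ly96* overlapped *Tlr3* (18.1 ± 3.45). *Tlr9* (8.41 ± 2.71) and *Tlr4* (6.44 ± 0.828) overlapped each other at the lower end. SOD1G93A LPS microglia had *Cd14* at 2332 ± 274 RPKM, *Tlr2* at 461 ± 29.5 and *Tlr7* at 78.9 ± 1.53. Below these, *Myd88* (41.7 ± 6.14) overlapped *Tlr1* (38.4 ± 1.84), *Ticam1* stood alone at 22.7 ± 0.475, and *Ly96* (17.7 ± 1.59), *Tlr3* (15.0 ± 5.06) and *Tlr9* (9.44 ± 1.38) each overlapped the next. *Tlr4* was lowest there at 7.44 ± 0.319 RPKM, while *Tlr1* was lowest in WT quiescent microglia.

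**Figure D1:**
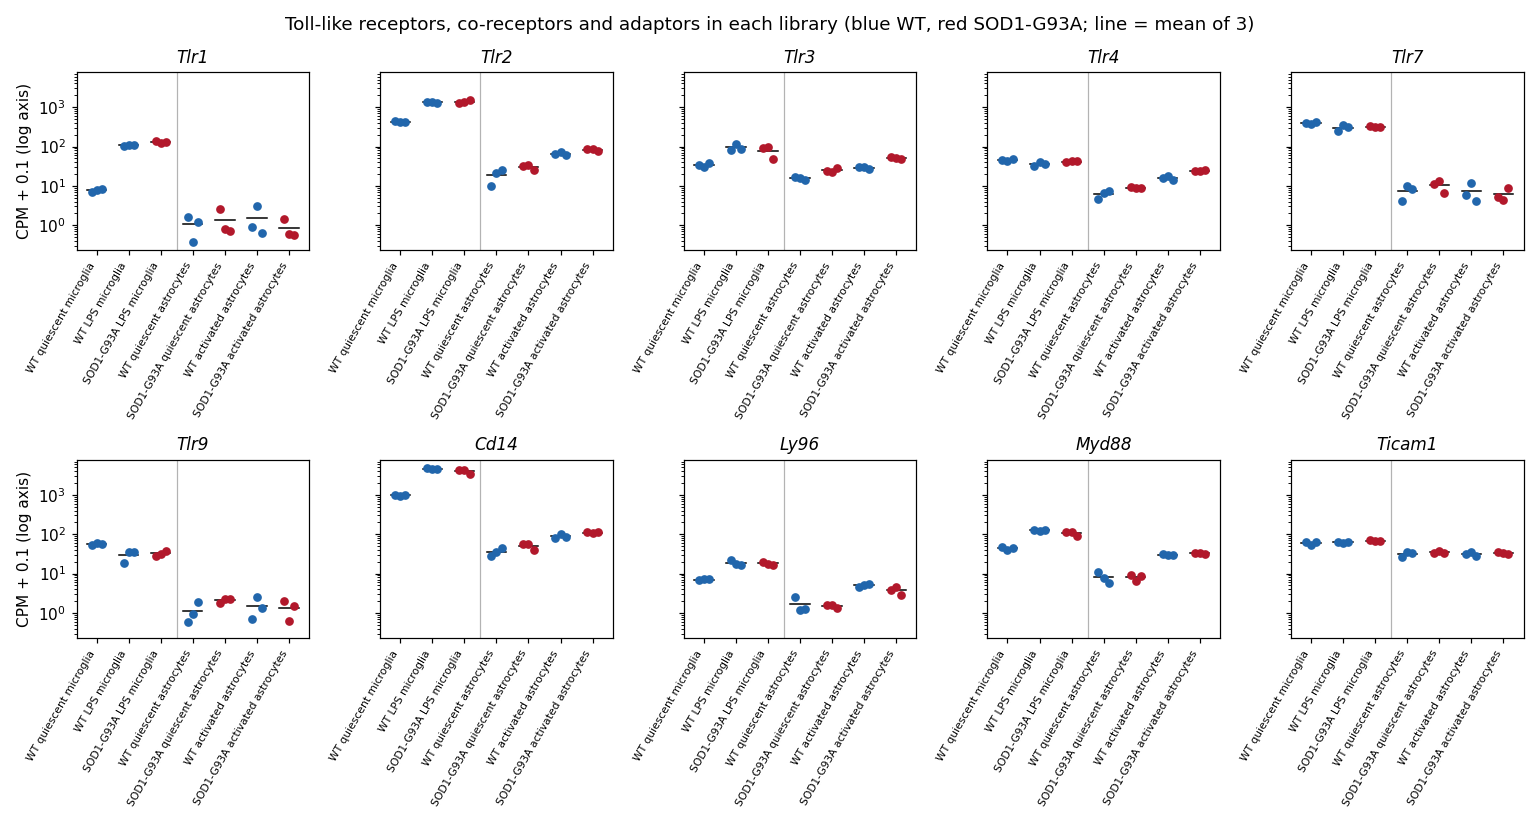
Level of the 10 genes in CPM (log axis, with 0.1 added) in each of the 21 libraries, by condition, with WT in blue, SOD1G93A in red and a line at the mean of 3 libraries. *Cd14* and *Tlr2* were high in every microglia library, and *Ticam1* spanned the narrowest range, from 25.8 to 69.6 CPM. In the astrocyte libraries *Tlr7* held 3.97 to 13.2 CPM and *Tlr9* 0.496 to 2.51, and *Tlr1* (0.27 to 2.96) and *Ly96* (1.10 to 5.39) were low there as well.

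Astrocytes held these RNAs in another order. In WT quiescent astrocytes *Cd14* led at 21.0 ± 4.75 RPKM, and *Ticam1* came next at 10.3 ± 1.51. *Tlr2* (6.14 ± 2.57), *Myd88* (3.13 ± 1.04) and *Tlr3* (2.96 ± 0.218) each overlapped the next, as did *Tlr7* (1.78 ± 0.742), *Ly96* (1.56 ± 0.757) and *Tlr4* (1.10 ± 0.261) below them on this scale. *Tlr9* (0.303 ± 0.201) and *Tlr1* (0.283 ± 0.184) overlapped at the bottom, with 0.27 to 1.84 CPM in a library. SOD1G93A quiescent astrocytes had *Cd14* at 29.2 ± 5.42 RPKM, then *Ticam1* at 11.7 ± 0.980, which overlapped *Tlr2* at 10.02 ± 1.68, and then *Tlr3* at 4.77 ± 0.567. In them *Myd88* (3.17 ± 0.621), *Tlr7* (2.53 ± 0.817) and *Tlr4* (1.59 ± 0.0525) each overlapped the next, above *Ly96* at 1.37 ± 0.159.

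In activated astrocytes the adaptor *Myd88* overlapped *Ticam1* in WT and stood above it in SOD1G93A cells. WT activated astrocytes had *Cd14* at 52.4 ± 6.57 RPKM and *Tlr2* at 21.7 ± 1.84, then *Myd88* at 11.7 ± 0.408, which overlapped *Ticam1* at 10.5 ± 0.984. *Tlr3* (5.60 ± 0.315) overlapped *Ly96* (4.89 ± 0.410), and *Tlr4* (2.82 ± 0.288) overlapped *Tlr7* (1.77 ± 1.03) on the same scale. SOD1G93A activated astrocytes had *Cd14* at 63.9 ± 1.28 RPKM, *Tlr2* at 27.4 ± 1.66, *Myd88* at 12.9 ± 0.350, *Ticam1* at 11.2 ± 0.449 and *Tlr3* at 9.81 ± 0.652, each apart from the next. Their *Tlr4* (4.40 ± 0.205) overlapped *Ly96* (3.64 ± 0.868), and *Tlr7* stood at 1.50 ± 0.599. *Tlr9* and *Tlr1* again overlapped at the bottom, at 0.364 ± 0.200 and 0.231 ± 0.148 RPKM in these cells and at 0.414 ± 0.281 and 0.425 ± 0.399 in WT activated astrocytes.

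The members differed in how far astrocytes fell short of microglia. *Tlr7* and *Tlr9*, sensors of RNA and of unmethylated DNA, stood in WT quiescent astrocytes at 1.84% and 1.85% of their mean CPM in WT quiescent microglia. The median of the 14 microglia markers was 2.34% in the same cells, and their lowest was *Trem2* at 1.41%. *Cd14* stood at 3.74% and *Tlr2* at 4.43%. *Tlr1* (12.5%), *Tlr4* (13.3%), *Myd88* (18.1%) and *Ly96* (22.8%) stood further above the marker median. *Tlr3*, the sensor of double-stranded RNA, stood at 45.6% and *Ticam1* at 51.1%. In SOD1G93A quiescent astrocytes the shares were 2.60% for *Tlr7*, 3.52% for *Tlr9*, 19.3% for *Tlr4* and 73.7% for *Tlr3*, with a marker median of 3.48%. Activated WT astrocytes had *Tlr7* at 1.82% and *Tlr9* at 2.53%, beside a marker median of 2.37%, with *Tlr4* at 34.2%, *Myd88* at 67.5%, *Ly96* at 71.6% and *Tlr3* at 86.4%. SOD1G93A activated astrocytes had *Tlr7* at 1.54%, *Tlr9* at 2.22% and the marker median at 2.21%, with *Tlr4* and *Ly96* at 53.3%, *Myd88* at 74.4% and *Tlr3* at 151%. *Tlr7* and *Tlr9* thus lay close to the microglia markers in all 4 astrocyte conditions, and *Cd14* and *Tlr2* came next in WT quiescent astrocytes. What part of the reads of any member in astrocytes came from microglia left in the cultures was not tested. The shares depend on the scaling, since TMM factors over all libraries were 0.685 to 0.864 in microglia and 1.18 to 1.26 in astrocytes and put *Tlr3* at 31.3% in WT quiescent and at 105.5% in SOD1G93A activated astrocytes.

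**Figure D2:**
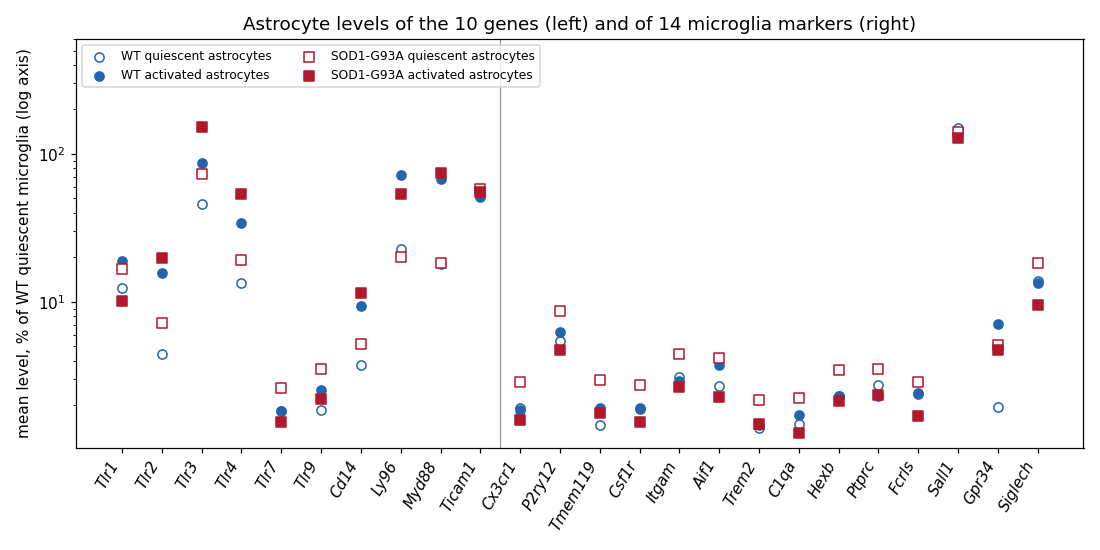
Mean CPM in the 4 astrocyte conditions as a percentage of the mean in WT quiescent microglia (log axis), for the 10 genes on the left and 14 microglia markers on the right, each point 1 condition. *Tlr7* and *Tlr9* lie between 1.54% and 3.52%, in the range of most markers, and *Tlr3* reaches 151% in SOD1G93A activated astrocytes.

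Most genes of the surface arm of this system were higher in LPS than in quiescent WT microglia. RNA of *Tlr1*, *Tlr2*, *Cd14* and *Ly96* rose, as did that of the endosomal receptor *Tlr3* and of the adaptor *Myd88*. *Tlr9* passed only the wider rule, downwards, and *Tlr4* and *Tlr7* passed neither rule. The comparison asks how WT microglia respond to LPS, the ligand of TLR4. All 10 members were tested, and 6 were called, all higher after LPS, beside 20.8% of all 10866 genes tested, 10.2% called higher and 10.6% called lower. The wider rule took 7 members higher and 1 lower, beside 56.9% of all genes. Groups did not overlap in 8 of 10 members and in 64.6% of all genes, and 8 members had an unadjusted p under 0.05, beside 61.6% of all genes. The median log2 fold change was 1.64 over the 10 members and 0.0048 over all genes tested.

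Among the receptors of the cell surface, *Tlr1* held 34.5, 42.1 and 43.1 normalized counts in the quiescent libraries and 626, 695 and 646 after LPS. Every LPS library was far above every quiescent one, a log2 fold change of 4.01 (SE 0.12, adjusted p = 1.4e-09), or 16.1-fold, the largest of the 10 members in this comparison. *Tlr2*, the partner of TLR1, held 2235, 2190.0 and 2161 normalized counts in quiescent libraries and 7891, 8554 and 7813 after LPS. The groups were again well apart, with a log2 fold change of 1.88 (SE 0.07, adjusted p = 9.1e-09), or 3.68-fold. For *Tlr4*, the LPS receptor, the values were 236, 236 and 251 normalized counts in quiescent and 185, 252 and 220.1 in LPS libraries. The LPS values reached from below the quiescent ones to just above them, and the log2 fold change was −0.15 (SE 0.12, adjusted p = 0.34).

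The LPS co-receptors both rose. *Cd14* held 5175, 4986 and 5169 normalized counts in quiescent libraries and 29245, 28624 and 27362 after LPS. No library of either group came near the other group, and the log2 fold change was 2.47 (SE 0.08, adjusted p = 1.3e-09), or 5.56-fold. *Ly96*, which encodes the LPS-binding subunit MD-2, held 35.0, 37.9 and 37.1 normalized counts in quiescent libraries and 134, 108 and 100.3 after LPS. All 3 LPS libraries were higher, with replicate 1 highest, at a log2 fold change of 1.60 (SE 0.16, adjusted p = 1e-05), or 3.03-fold.

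The endosomal receptors took 3 different courses. *Tlr3* held 177, 159.9 and 195 normalized counts in quiescent libraries and 482, 719 and 534 after LPS. The groups did not overlap and the log2 fold change was 1.68 (SE 0.15, adjusted p = 4.1e-06), or 3.21-fold. *Tlr7*, a sensor of single-stranded RNA, held 2031, 2030.2 and 2196 normalized counts in quiescent libraries and 1441, 2195 and 1869.9 after LPS. WT LPS replicate 1 was lowest of the 6 and replicate 2 lay among the quiescent values, with a log2 fold change of −0.20 (SE 0.13, adjusted p = 0.22). *Tlr9* held 282, 316 and 302 normalized counts in quiescent libraries and 109, 218 and 211 after LPS. All LPS libraries were below all quiescent ones, replicate 1 farthest, and the log2 fold change of −0.80 (SE 0.22, adjusted p = 0.011) passed the wider rule and not the stricter one. Without WT LPS microglia replicate 1, *Tlr9* was at −0.48, which again passed the wider rule only, and the log2 fold changes of *Tlr7* and *Tlr4* were −0.041 and −0.032.

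*Tlr7* lies on the X chromosome, and the LPS and quiescent libraries also differed in sex-linked genes. All 5 sex genes on the list were called, *Xist* higher (log2 fold change 1.07, adjusted p = 0.00036) and the Y-linked *Ddx3y*, *Eif2s3y*, *Uty* and *Kdm5d* lower. *Ddx3y* held 119, 118 and 129 normalized counts in quiescent libraries and 4.41, 2.46 and 6.51 after LPS. The 5 genes summed to 157, 117 and 139.8 CPM in the quiescent libraries and to 119, 165 and 175 after LPS, *Xist* the most abundant in each, and 1 of the 5 was at 0 in WT LPS replicate 2. Their part in the values of the members was not tested.

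The adaptors differed from each other. *Myd88* held 243, 219 and 241 normalized counts in quiescent libraries and 748, 773 and 799.5 after LPS. The LPS libraries were tightly grouped above the quiescent ones, at a log2 fold change of 1.72 (SE 0.09, adjusted p = 6.3e-08), or 3.30-fold. *Ticam1* held 325, 290.3 and 338 normalized counts in quiescent libraries and 376, 369 and 385 after LPS. The groups did not overlap on this scale, and the log2 fold change of 0.25 (SE 0.10, adjusted p = 0.046) passed the wider rule alone. In CPM the *Ticam1* values were 63.0, 54.1 and 64.3 in quiescent and 63.0, 58.8 and 63.3 in LPS libraries, which overlap.

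Lists of genes around the members were counted beside the 20.8% of all genes called in this comparison. Of the other Toll-like receptors, 3 of 6 were tested and 1 was called, *Tlr6*, which encodes the other partner of TLR2, with a log2 fold change of 2.40 (adjusted p = 4.8e-07) from 39.6, 35.8 and 34.8 to 173, 243 and 182 normalized counts. For *Tlr13*, a sensor of bacterial RNA, the log2 fold change was −0.82 (adjusted p = 0.00055), past the wider rule only, from 1172, 1231 and 1168 to 522, 773 and 762 normalized counts. Of the accessory and trafficking proteins, 8 of 9 were tested, with 1 called higher and 1 lower and a median log2 fold change of −0.19. The scavenger receptor *Cd36*, which assists TLR2, rose by 2.46 on the log2 scale (adjusted p = 3.4e-08), and *Cd180*, a TLR4-like receptor that restrains LPS signalling in myeloid cells, fell by 1.47 (adjusted p = 1e-06). *Cd180* held 3026, 3086 and 3091 normalized counts in quiescent libraries and 934, 1278 and 1129 after LPS.

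Downstream of the receptors, 7 of 20 adaptors and proximal kinases were called, all higher, and the wider rule took 11 higher and 4 lower. The IKK-related kinase *Ikbke* rose from 9.64, 0 and 10.6 to 535, 467 and 454 normalized counts (adjusted p = 2.8e-05), and its fitted fold change depends on the pseudocount at the 0 and is not given. The interferon regulatory factor *Irf7* rose by 5.51 (adjusted p = 2.2e-11) from 346, 316 and 326 to 16242, 14964 and 13949. The kinase gene *Irak2* rose by 1.50 on the log2 scale (adjusted p = 9.5e-08), from a mean of 831 to 2348 normalized counts. Inhibitors of the pathway rose as well, with 6 of 10 tested called higher and 1 lower and a median log2 fold change of 2.27. *Irak3*, the inactive kinase that blocks MyD88 signalling, rose from 95.9, 116 and 104 to 2186, 2715 and 2574 normalized counts, by 4.55 on the log2 scale (adjusted p = 2.8e-10). *Socs1*, a suppressor of cytokine signalling, rose from 2.54, 4.21 and 0.757 to 101, 106 and 117 normalized counts (adjusted p = 1e-06), and the ribonuclease gene *Zc3h12a*, which limits cytokine messages, by 4.74 on the log2 scale (adjusted p = 5.8e-08). The inhibitor that fell was *Il1rl1*, a receptor that binds MyD88, from 22.8, 35.8 and 15.9 to 0.734, 0 and 0 normalized counts (adjusted p = 5e-05), and its fitted fold change rests on the pseudocount and is not given.

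The textbook targets of both branches were called without exception among those tested. The lists were chosen with earlier results of these data known, so their counts are a description only. All 10 targets of the MyD88 branch rose, with a median log2 fold change of 6.92, led by *Il1a* (7.46), *Il12b* (7.40) and *Il1b* (7.33). All 9 tested targets of the TRIF branch rose, with a median of 6.05, led by *Ccl5* (7.49), *Oasl1* (6.85) and *Rsad2* (6.24), and the 10th, *Ifnb1*, had at most 3 reads in any library. Of the other sensors of nucleic acids, 3 of 4 were called higher, *Zbp1* (5.26), *Ddx58* (3.01) and *Ifih1* (2.71). Microglia markers went the other way, with 10 of 14 called lower and a median log2 fold change of −1.67, led by *Tmem119* (−4.62), *P2ry12* (−3.81) and *Gpr34* (−3.62). Their sum was 10988, 11494 and 10808 CPM in the quiescent libraries and 3511, 3490.1 and 3547 after LPS, where *Csf1r* (replicate 1) or *Itgam* (replicates 2 and 3) was the most abundant and none of the 14 was at 0. The part of that change in the members' values was not tested.

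SOD1G93A LPS microglia were also set against the same 3 WT quiescent libraries, a comparison that mixes genotype with LPS and shares its quiescent libraries with the one before, so the values stand side by side only. Again *Tlr1*, *Tlr2*, *Cd14*, *Ly96* and *Myd88* rose. Of the 10 members tested 5 were called, all higher, beside 15.7% of 10921 genes, and the wider rule took 7 higher and 1 lower, beside 53.9% of all genes. Groups did not overlap in 8 of 10 members and in 62.6% of all genes, and 8 members had an unadjusted p under 0.05, beside 59.2% of all genes. The log2 fold changes were 4.28 for *Tlr1*, 1.96 for *Tlr2*, 2.27 for *Cd14*, 1.56 for *Ly96* and 1.48 for *Myd88*, with adjusted p values of at most 2.6e-05. The median was 1.42 over the members and 0.0090 over all genes tested.

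The remaining members gave smaller or less even values in that comparison. *Tlr3* held 188, 169.9 and 206 normalized counts in quiescent libraries and 615, 618 and 302 in SOD1G93A LPS libraries. Replicate 3, the library that stood apart, lay between the other two of its group and the quiescent libraries, and the log2 fold change of 1.37 (SE 0.25, adjusted p = 0.0016) passed the wider rule only. Without SOD1G93A LPS microglia replicate 3, *Tlr3* was called, at 1.71 (adjusted p = 1.74e-09). *Tlr9* (−0.58, adjusted p = 0.0016) and *Ticam1* (0.39, adjusted p = 0.0041) passed the wider rule, and *Tlr4* (0.07, adjusted p = 0.47) and *Tlr7* (−0.08, adjusted p = 0.36) did not. The lists showed 10 of 10 MyD88 targets and 9 of 9 tested TRIF targets called higher, 6 of 20 adaptors and proximal kinases higher, 6 of 10 inhibitors higher and 1 lower, and 10 of 14 microglia markers lower. Of the other Toll-like receptors 1 of 3 tested was called higher, of the accessory proteins 1 of 8 and of the other nucleic acid sensors 3 of 4. Of all genes 15.7% were called in this comparison. All 5 sex genes were called, 1 higher and 4 lower, with sums of 157, 117 and 139.8 CPM in quiescent and 180, 141 and 191 in SOD1G93A LPS libraries, *Xist* the most abundant and 1 of the 5 at 0 in replicate 3. Oligodendrocyte lineage markers had 2 of 2 tested called lower, with sums of 1291, 1325 and 1335 CPM in quiescent and 130, 125 and 236 in SOD1G93A LPS libraries, *Cspg4* the most abundant. Endothelial markers had 1 called higher and 1 lower of 2, astrocyte markers 2 of 9 higher, and those of monocytes and border macrophages and of pericytes and fibroblasts 1 of 4 higher each. The part of these sex genes and markers in the values of the members, of which *Tlr7* is X-linked, was not tested. Without single libraries the members called were 5 or 6 of 10.

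**Figure D3:**
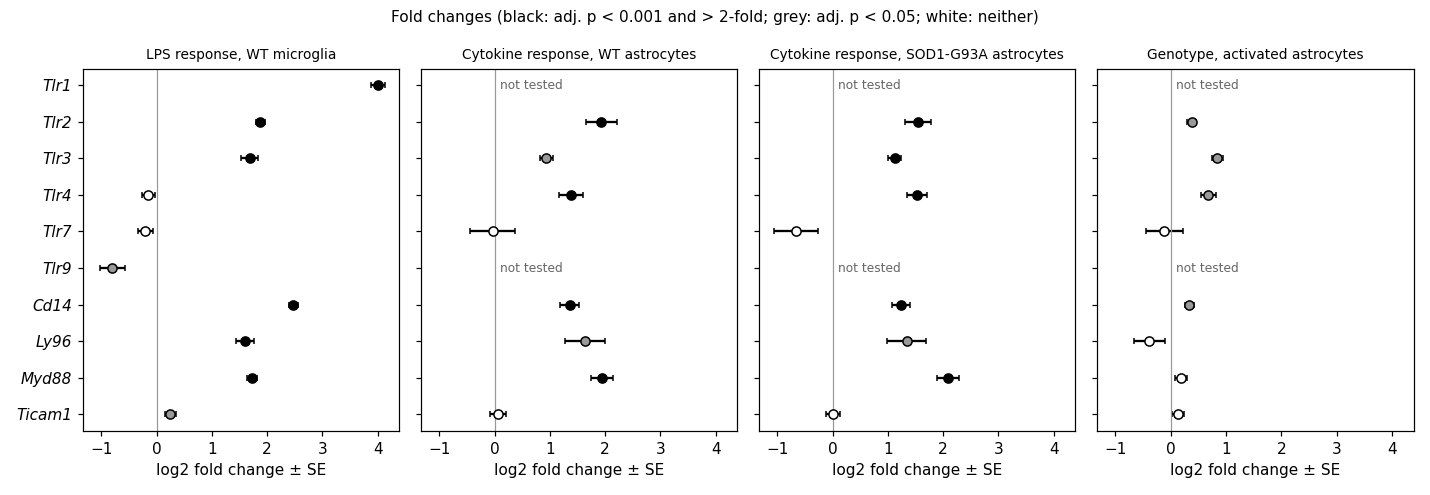
Log2 fold change (bars show SE) of the 10 genes in 4 comparisons, with black for genes called at an adjusted p under 0.001 and over 2-fold, grey for an adjusted p under 0.05 and white for neither. *Tlr1* shows the largest change under LPS (4.01) and could not be tested in astrocytes, and *Tlr3* the largest genotype difference in activated astrocytes (0.84).

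The comparison of genotypes under LPS asks whether the transgene alters the activated state of microglia. No member was called and none passed the wider rule. The count was 0 of 10 members with limma, beside 0% (strict) and 0.00936% (wide) of 10679 genes tested, with 1 member at an unadjusted p under 0.05, beside 8.71% of all genes, and 0 called by edgeR or DESeq2. The genotypes did not overlap in 4 of 10 members, *Tlr1*, *Cd14*, *Myd88* and *Ticam1*, beside 18.2% of all genes. The median log2 fold change was 0.10 over the members and 0.0078 over all genes. DESeq2 called 3 genes among all tested and edgeR 0.

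The member with the lowest unadjusted p was *Tlr1*, which held 622, 689 and 646 normalized counts in WT and 839, 757 and 756 in SOD1G93A LPS microglia. The genotypes did not overlap, with a log2 fold change of 0.26 (SE 0.10, adjusted p = 0.57). *Cd14* held 29039.6, 28393 and 27365 normalized counts in WT and 26526, 26657 and 20812 in SOD1G93A microglia, and *Myd88* held 742, 767 and 799.6 against 722, 714 and 531. In both genes every SOD1G93A library was below every WT one, with replicate 3 farthest, and the log2 fold changes were −0.21 (adjusted p = 0.65) and −0.24 (adjusted p = 0.59). Without replicate 3 they were −0.0877 for *Cd14* and −0.0996 for *Myd88*. *Ticam1* held 373, 366 and 385 normalized counts in WT and 432, 413 and 399 in SOD1G93A microglia. These groups did not overlap either, at a log2 fold change of 0.14 (adjusted p = 0.63). *Tlr3* held 478, 713 and 534 against 572, 579 and 284 normalized counts, where SOD1G93A replicate 3 was the lowest of the 6 and the groups overlapped, at −0.32 (SE 0.27, adjusted p = 0.7). Without that library the log2 fold change of *Tlr3* was 0.02. *Tlr2* (0.07), *Tlr4* (0.22), *Tlr7* (0.13), *Tlr9* (0.22) and *Ly96* (−0.04) also passed neither rule, with adjusted p values of at least 0.61. Without 1 library *Tlr2* ranged from 0.044 to 0.11 and *Tlr4* from 0.10 to 0.32.

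None of the gene lists held a called gene between the genotypes under LPS with limma. At an unadjusted p under 0.05, which 8.71% of all genes had, there were 4 of 9 TRIF targets, with a median log2 fold change of −0.72, and 4 of 10 MyD88 targets, with a median of −0.17. There were also 1 of 3 other Toll-like receptors, 1 of 8 accessory proteins, 0 of 20 adaptors and proximal kinases, 0 of 9 inhibitors and 1 of 4 nucleic acid sensors. Markers of monocytes and border macrophages had 2 of 3 at that limit, of the oligodendrocyte lineage 1 of 2, of pericytes and fibroblasts 1 of 3, and astrocyte markers, endothelial markers, neutrophil markers and sex genes 0 of 9, 2, 1 and 1. Microglia markers had 3 of 13 and a median of 0.32. They summed to 3511, 3490.1 and 3547 CPM in WT and to 3915, 3812 and 5539.9 in SOD1G93A microglia, where *Csf1r* was the most abundant and no marker was at 0. The sum was highest in replicate 3, in which *Irf7* stood at 1089 CPM against 2264 and 2229 in replicates 1 and 2. The 10 TRIF targets summed to 14953, 13755 and 12371 CPM in WT and to 12100, 12908 and 5196 in SOD1G93A microglia, lowest in that library and overlapping between the genotypes in the others. What part this library's state had in the values of the members and of the lists was not tested.

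Receptors of the cell surface, *Cd14* and an adaptor were higher in WT astrocytes activated with IL-1α, TNFα and C1q than in quiescent ones. RNA of *Tlr2*, *Tlr4*, *Cd14* and *Myd88* rose by more than 2-fold, and *Tlr3* rose under the wider rule. So did *Ly96*, which had enough reads to be tested only through its activated libraries. *Ticam1* and *Tlr7* passed neither rule, and *Tlr1* and *Tlr9* had too few reads to be tested. The comparison asks how astrocytes respond to the cytokines that activated microglia release. Of the 8 members tested 4 were called, all higher, beside 11.5% of 12336 genes, 6.0% higher and 5.54% lower. The wider rule took 6 members, all higher, beside 38.3% of all genes. Groups did not overlap in the same 6 of 8 members and in 50.9% of all genes, and these 6 had an unadjusted p under 0.05, beside 46.8% of all genes. The median log2 fold change was 1.37 over the 8 members tested and 0.0139 over all genes.

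At the surface, *Tlr2* held 46.6, 98.4 and 123 normalized counts in quiescent and 318, 342 and 296 in activated WT astrocytes. Activated libraries were close together and all above the quiescent ones, of which replicate 1 was lowest, with a log2 fold change of 1.93 (SE 0.28, adjusted p = 0.00023), or 3.81-fold. *Tlr4* held 21.0, 31.5 and 35.7 normalized counts in quiescent and 76.2, 83.4 and 69.8 in activated libraries. Here too the groups were apart, at a log2 fold change of 1.38 (SE 0.22, adjusted p = 0.00047), or 2.60-fold. The calls of *Tlr2* and *Tlr4* were lost without WT quiescent replicate 2 (adjusted p = 0.00137 and 0.00214), WT activated replicate 1 (0.00202 and 0.0041), WT activated replicate 2 (0.00124 and 0.00397) or WT activated replicate 3 (0.0019 and 0.00307), while their log2 fold changes stayed at 1.88 to 2.05 and 1.32 to 1.44. In each of these fits 2 members were called. Both stayed called without WT quiescent replicate 1, at 1.52 for *Tlr2* and 1.16 for *Tlr4*, and without WT quiescent replicate 3, at 2.21 and 1.53. *Tlr1* had at most 14.3 normalized counts in any of the 6 libraries.

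Both co-receptors moved up with activation. *Cd14* held 133, 172 and 221 normalized counts in quiescent and 399, 499.9 and 429 in activated WT astrocytes. The lowest activated library was above the highest quiescent one, with a log2 fold change of 1.36 (SE 0.17, adjusted p = 7e-05), or 2.56-fold. *Ly96* held 11.6, 5.25 and 5.87 normalized counts in quiescent and 22.2, 24.2 and 26.7 in activated libraries. The groups did not overlap, and the log2 fold change of 1.63 (SE 0.36, adjusted p = 0.0041) passed the wider rule. Its mean was 7.59 in quiescent and 24.4 in activated libraries, so *Ly96* met the minimum mean of 10 for testing only through the activated ones. *Ly96* was called without WT quiescent replicate 1 (1.95, adjusted p = 0.000362), which had its highest quiescent value, and by edgeR (1.87, adjusted p = 0.000908). That fit without a library called 5 members.

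Of the endosomal receptors, *Tlr3* held 76.9, 74.8 and 69.9 normalized counts in quiescent and 145, 147 and 135 in activated WT astrocytes. The libraries of each state lay close together and the states were apart, with a log2 fold change of 0.94 (SE 0.13, adjusted p = 0.00013), or 1.92-fold, just under the fold limit. *Tlr7* held 18.6, 47.2 and 39.5 normalized counts in quiescent and 28.0, 57.8 and 19.8 in activated libraries. These overlapped widely, at a log2 fold change of −0.04 (SE 0.41, adjusted p = 0.95). *Tlr9* had at most 12.1 normalized counts in a library.

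Of the adaptors, *Myd88* held 51.2, 36.7 and 27.7 normalized counts in quiescent and 152, 142 and 147 in activated WT astrocytes. Activated libraries were nearly level and far above the quiescent ones, at a log2 fold change of 1.94 (SE 0.21, adjusted p = 2.1e-05), or 3.85-fold. *Tlr2* was close to it at 1.93. Without 1 library *Myd88* ranged from 1.74 to 2.17 and *Tlr2* from 1.52 to 2.21, so their order was not resolved. *Ticam1* held 121, 164 and 161 normalized counts in quiescent and 152, 167 and 142 in activated libraries. The groups overlapped, and the log2 fold change was 0.06 (SE 0.14, adjusted p = 0.78).

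Of all genes 11.5% were called in this comparison. Around the members, the accessory proteins had 1 of 9 called, *Lbp*, the LPS-binding protein that delivers LPS to CD14. *Lbp* rose from 4.66, 3.94 and 1.07 to 53.0, 67.7 and 66.4 normalized counts (adjusted p = 1.5e-05), with few reads before activation. Of 20 adaptors and proximal kinases 1 was called, *Irak2*, which rose from 41.9, 70.9 and 64.0 to 174, 167 and 176 normalized counts (log2 fold change 1.56, adjusted p = 5.3e-05). Inhibitors had 4 of 9 called, all higher, with a median log2 fold change of 0.86. *Nfkbia*, which holds NF-κB in the cytoplasm, rose by 4.55 on the log2 scale (adjusted p = 2.1e-09) from a mean of 69.7 to 1636 normalized counts. *Zc3h12a* rose by 4.17 (adjusted p = 1.1e-05) and the deubiquitinase gene *Tnfaip3* by 2.86 (adjusted p = 3.2e-05). The only other Toll-like receptor tested, *Tlr13*, had a log2 fold change of 0.87 and was not called.

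MyD88 targets rose in 5 of 10 genes, with a median log2 fold change of 1.45. The neutrophil chemokine genes *Cxcl1* and *Cxcl2* rose by 6.35 (adjusted p = 5.8e-10) and 3.02 (adjusted p = 3.2e-05), and *Nfkbiz*, a co-factor of NF-κB, by 3.38 (adjusted p = 3e-09). TRIF targets had 1 of 8 called higher and 1 lower, with 4 higher and 1 lower under the wider rule and a median of 0.69. *Cxcl10*, a chemokine gene induced by interferon and NF-κB, rose by 3.67 on the log2 scale (adjusted p = 3.2e-08) from 34.9, 43.3 and 55.5 to 538, 565 and 604 normalized counts. *Ifit2*, an interferon-induced gene, fell by 1.43 (adjusted p = 3.7e-06) from 309.8, 319 and 366 to 122, 136 and 109. The cytosolic RNA sensors *Ddx58* (1.93, adjusted p = 0.00066) and *Ifih1* (1.74, adjusted p = 0.00074) were called, 2 of the 4 other nucleic acid sensors.

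No microglia marker passed either rule with this activation. With limma 0 of 11 tested were called, 0 passed the wider rule and 0 had an unadjusted p under 0.05, with a median log2 fold change of −0.0043. They summed to 344, 407 and 481 CPM in quiescent and to 374, 488 and 351 in activated WT astrocytes, *Sall1* the most abundant in each, with 2 of 14 at 0 in quiescent replicate 1 and 1 at 0 in activated replicate 1. *Cd14* stood at a mean of 90.7 CPM in WT activated astrocytes and 4655 in WT LPS microglia, and *Tlr2* at 65.3 and 1324. What part of the rise of the members came from microglia left in the cultures, in any state, was not tested.

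Other marker lists did move with the activation of WT astrocytes. Astrocyte markers had 1 of 10 higher and 7 lower under the wider rule, 2 of them called lower, with a median log2 fold change of −0.81. They summed to 4992, 5413 and 6228 CPM in quiescent and to 4543, 4566 and 4566 in activated libraries, *Slc1a3* the most abundant and none at 0. The endothelial marker tested, *Flt1*, was called higher at 4.02, from 7.94, 8.25 and 10.4 to 135, 146 and 150.3 CPM. Markers of pericytes and fibroblasts had 2 of 4 called higher, with sums of 9.42, 10.996 and 17.0 CPM in quiescent and 54.7, 50.2 and 45.2 in activated libraries, where *Pdgfrb* and then *Lum* was the most abundant. Neuron markers had 1 of 3 called higher, and oligodendrocyte lineage markers 0 of 5 called with limma (1 higher under the wider rule, 3 with an unadjusted p under 0.05). Sex genes had 0 of 5 past either rule and 2 with an unadjusted p under 0.05, with sums of 1030, 803 and 369 CPM in quiescent and 681, 634 and 561 in activated libraries, *Xist* the most abundant. The part of these lists in the members' values was not tested.

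In SOD1G93A astrocytes 6 members were higher after activation under at least the wider rule. RNA of *Tlr2*, *Tlr3*, *Tlr4*, *Cd14* and *Myd88* rose by more than 2-fold. *Ly96* rose under the wider rule but had enough reads to be tested only through activated libraries. No deposited table holds both of these groups, so all 12 astrocyte libraries were scaled and fitted together from recovered reads, and 12269 genes were tested. Of 8 members tested 5 were called, all higher, beside 13.3% of all genes, 6.74% higher and 6.59% lower. The wider rule took 6, beside 43.4% of all genes, and groups did not overlap in these 6 and in 52.0% of all genes. An unadjusted p under 0.05 was found for the same 6, beside 50.4% of all genes. The median was 1.28 over the members tested and −0.0023 over all genes.

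*Tlr2* held 145, 153 and 108 normalized counts in quiescent and 401, 405 and 366 in activated SOD1G93A astrocytes. All activated libraries were higher, with a log2 fold change of 1.54 (SE 0.24, adjusted p = 4.6e-05). *Tlr4* held 42.1, 37.9 and 38.5 normalized counts in quiescent and 112, 112 and 123 in activated libraries. Neither group spread far and they did not meet, at a log2 fold change of 1.53 (SE 0.19, adjusted p = 3e-06). *Cd14* held 262, 244 and 174 normalized counts in quiescent and 529, 514 and 529.6 in activated libraries. Quiescent replicate 3 was lowest, and the log2 fold change was 1.23 (SE 0.16, adjusted p = 8.4e-06). *Ly96* held 6.77, 6.72 and 5.31 against 17.6, 21.7 and 13.4 normalized counts, apart in all libraries but few in reads, at 1.34 (SE 0.35, adjusted p = 0.0052). Its mean was 6.27 in quiescent and 17.6 in activated libraries, so *Ly96* met the minimum mean of 10 for testing only through activated ones.

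*Tlr3* held 108, 101 and 123 normalized counts in quiescent and 256, 241 and 228 in activated SOD1G93A astrocytes. Every activated library was above every quiescent one, with a log2 fold change of 1.12 (SE 0.12, adjusted p = 4e-07). *Myd88* held 43.0, 28.1 and 38.5 normalized counts in quiescent and 155, 162 and 154 in activated libraries. It had the largest change of the members in these cells, 2.09 (SE 0.20, adjusted p = 1.3e-07). *Tlr7* held 50.8, 58.6 and 29.2 against 23.9, 20.5 and 42.5 normalized counts, overlapping, at −0.67 (SE 0.40, adjusted p = 0.2), and *Ticam1* held 154, 170.4 and 146 against 161, 161 and 152, at 0.01 (adjusted p = 0.95).

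In the same fit 13.3% of all genes were called. *Lbp* rose from 0.967, 4.89 and 0 to 25.2, 43.4 and 35.8 normalized counts (adjusted p = 1.1e-05), 1 of 9 accessory proteins called. *Irak2* (1.61, adjusted p = 2.4e-07) and *Irf7* (1.11, adjusted p = 0.00089) were the adaptors and proximal kinases called, 2 of 20. Inhibitors had 4 of 9 called higher, led by *Nfkbia* (3.97, adjusted p = 8.1e-13), and MyD88 targets 5 of 10, led by *Cxcl1* (5.96, adjusted p = 1.5e-13), with 2 lower under the wider rule and a median of 0.37. TRIF targets had 5 of 9 called, all higher, with a median of 1.84, led by *Cxcl10* (4.90, adjusted p = 1e-12), *Ifit3* (3.04, adjusted p = 3.6e-09) and *Ifit1* (2.71, adjusted p = 1.1e-07). Other nucleic acid sensors had 2 of 4 called. Of the microglia markers 0 of 11 were called, while 5 were lower under the wider rule and 7 had an unadjusted p under 0.05, with a median of −0.66. Their sum was 554, 544 and 421 CPM in quiescent and 419, 311 and 336 in activated SOD1G93A astrocytes, *Sall1* the most abundant, with 1 of 14 at 0 in activated replicate 3. Of the 5 sex genes 0 were called and 2 were lower under the wider rule, *Xist* (−0.93, adjusted p = 0.042) and *Kdm5d* (−0.53, adjusted p = 0.0056). The part of these genes and markers in the values of the members, of which *Tlr7* is X-linked, was not tested.

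Markers of other cell types moved with this activation too. Markers of pericytes and fibroblasts had 3 of 3 tested called higher, with a median log2 fold change of 3.97 and sums of 9.34, 8.27 and 8.50 CPM in quiescent and 34.1, 38.7 and 37.0 in activated SOD1G93A astrocytes, where *Pdgfrb* and then *Lum* was the most abundant. The endothelial marker tested, *Flt1*, was called higher at 4.41, from 4.62, 5.65 and 6.07 to 116, 114 and 110 CPM. Neuron markers had 1 of 3 called higher, astrocyte markers 1 of 10 higher and 2 lower, with sums of 5135, 4740.0 and 4158 CPM in quiescent and 4484, 4441 and 4526 in activated libraries, and oligodendrocyte lineage markers 0 of 5 called with limma (2 with an unadjusted p under 0.05). Their part in the members' values was not tested.

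Between the genotypes of quiescent astrocytes no member was called. The comparison asks whether SOD1G93A astrocytes differ before any activation, and it shares the WT quiescent libraries with the WT activation comparison. With limma 0 of 7 members tested were called, 3 had an unadjusted p under 0.05, beside 8.70% of all genes, and edgeR and DESeq2 called 0. The genotypes did not overlap in 2 of the 7 and in 14.6% of all genes. Among all 12271 genes 0% were called and 0.0570% passed the wider rule, and DESeq2 called 7 and edgeR 0. The median log2 fold change was 0.51 over the 7 members and 0.0021 over all genes tested.

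*Tlr3* held 81.0, 77.9 and 72.5 normalized counts in WT and 118, 112 and 138 in SOD1G93A quiescent astrocytes. The genotypes did not overlap, with a log2 fold change of 0.66 (SE 0.14, adjusted p = 0.23). *Tlr4* held 22.1, 32.8 and 37.1 normalized counts in WT and 46.0, 41.8 and 43.0 in SOD1G93A libraries. Every SOD1G93A value was above every WT one, at 0.52 (SE 0.24, adjusted p = 0.57). *Tlr2* held 49.1, 103 and 128 against 159, 169 and 120.0 normalized counts, which overlapped, at 0.76 (SE 0.30, adjusted p = 0.52). *Cd14* held 140.0, 179 and 229 against 286, 269.7 and 194, which also overlapped, at 0.46 (SE 0.20, adjusted p = 0.55). For *Tlr2*, *Cd14* and *Tlr4* WT replicate 1 was the lowest of the 6 libraries. Without it the log2 fold changes were 0.36 for *Tlr2*, 0.28 for *Cd14*, 0.31 for *Tlr4* and 0.12 for *Tlr7*, and without WT replicate 3 they were 1.04 for *Tlr2*, 0.64 for *Cd14* and 0.67 for *Tlr4*, none past either rule. *Tlr7* (0.51, adjusted p = 0.7), *Ticam1* (0.17, adjusted p = 0.75) and *Myd88* (0.02, adjusted p = 0.99) had overlapping groups, and *Ly96*, *Tlr1* and *Tlr9* had too few reads to be tested. Without 1 library *Ticam1* ranged from 0.035 to 0.24. Across genes, WT replicate 3 varied with SOD1G93A replicate 1 (r = 0.52) and WT replicate 1 with SOD1G93A replicate 3 (r = 0.35). No label pairs these libraries and no fit paired them so, and the overlaps and p values here are for unpaired libraries.

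Microglia markers stood in a like position in these libraries. With limma 0 of 11 tested were called, 5 had an unadjusted p under 0.05, and the median log2 fold change was 0.57. They summed to 344, 407 and 481 CPM in WT and 554, 544 and 421 in SOD1G93A quiescent astrocytes, *Sall1* the most abundant in each, and 2 of 14 were at 0 in WT replicate 1. The part of this difference in the values of *Tlr2*, *Cd14*, *Tlr4* and *Tlr7* was not tested. No gene of the other lists was called, and at an unadjusted p under 0.05 there were 0 of 1 other Toll-like receptors, 1 of 8 accessory proteins, 1 of 20 adaptors and proximal kinases, 2 of 9 inhibitors, 4 of 10 MyD88 targets, 2 of 8 TRIF targets and 2 of 4 nucleic acid sensors. Of the other markers there were 3 of 10 for astrocytes, 2 of 5 for the oligodendrocyte lineage, 1 of 1 for endothelial cells, 0 of 2 for pericytes and fibroblasts and 2 of 3 for neurons.

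Sex genes were counted between the quiescent genotypes as well. All 5 had an unadjusted p under 0.05 (8.70% of all genes) and no overlap between the genotypes (14.6% of all genes), 0 were called, and 2 passed the wider rule, *Kdm5d* (−1.24, adjusted p = 0.024) and *Ddx3y* (−1.05, adjusted p = 0.046). *Xist* was at 1.99 (adjusted p = 0.24), *Eif2s3y* at −1.02 and *Uty* at −1.01. The 5 genes summed to 1030, 803 and 369 CPM in WT and to 1207, 2539 and 3541 in SOD1G93A quiescent astrocytes, *Xist* the most abundant and none at 0. Their part in the values of the members, of which *Tlr7* is X-linked, was not tested.

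In activated astrocytes the genotypes differed in part of the members. *Tlr3*, *Tlr4*, *Tlr2* and *Cd14* were higher in SOD1G93A than in WT activated astrocytes under the wider rule, by 0.34 to 0.84 on the log2 scale. None reached the 2-fold limit. With limma 0 of 8 members tested were called and 4 had an unadjusted p under 0.05, beside 20.4% of all genes, edgeR and DESeq2 called 0, and among 12098 genes 0.645% were called, 0.521% higher and 0.124% lower. The wider rule took 4 members, all higher, beside 7.27% of all genes. The genotypes did not overlap in 5 of 8 members and in 24.1% of all genes. The median was 0.26 over the members tested and −0.0038 over all genes, and the comparison shares its WT libraries with the WT activation comparison.

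*Tlr3* held 125, 127 and 116 normalized counts in WT and 235, 220.2 and 208 in SOD1G93A activated astrocytes. The lowest SOD1G93A library was well above the highest WT one, with a log2 fold change of 0.84 (SE 0.10, adjusted p = 8.7e-06). *Tlr4* held 65.6, 72.0 and 59.9 normalized counts in WT and 103, 102 and 112 in SOD1G93A libraries. The genotypes were apart, at 0.68 (SE 0.14, adjusted p = 0.0032), or 1.60-fold. *Tlr2* held 274, 295 and 254 normalized counts in WT and 367, 369.9 and 334 in SOD1G93A libraries. These were also apart, at 0.38 (SE 0.08, adjusted p = 0.0063), or 1.30-fold. *Cd14* held 344, 431 and 367 normalized counts in WT and 485, 469 and 483 in SOD1G93A libraries. WT replicate 2 came closest to the SOD1G93A values, and the log2 fold change was 0.34 (SE 0.08, adjusted p = 0.014), or 1.26-fold. Without WT activated replicate 1 or 3 that of *Cd14* passed neither rule (adjusted p = 0.131 and 0.066), while *Tlr2*, *Tlr3* and *Tlr4* passed the wider rule without any single library.

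The adaptors and the other members passed neither rule between the activated genotypes. *Myd88* held 131, 122 and 126 normalized counts in WT and 142, 148 and 140.5 in SOD1G93A activated astrocytes. The groups did not overlap, at a log2 fold change of 0.18 (SE 0.11, adjusted p = 0.37). *Ticam1* (0.13, adjusted p = 0.58), *Tlr7* (−0.12, adjusted p = 0.89) and *Ly96* (−0.39, adjusted p = 0.5) had overlapping groups. Without 1 library *Ticam1* ranged from 0.068 to 0.19 and *Ly96* from −0.54 to −0.21. *Tlr1* and *Tlr9* were not tested.

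Beside these members stood the TRIF targets and the cytosolic RNA sensors. Of 9 TRIF targets tested, 5 were called higher and 8 passed the wider rule, all higher, with a median log2 fold change of 1.71. *Ifit3* held 42.4, 59.1 and 61.4 normalized counts in WT and 459.8, 323 and 375 in SOD1G93A activated astrocytes (2.81, adjusted p = 5.1e-11). *Ifit1* differed by 2.61 (adjusted p = 3.1e-09), *Isg15* by 2.15 (adjusted p = 4.2e-07) and *Cxcl10* by 1.71 (adjusted p = 3.6e-11). *Ddx58* (1.44, adjusted p = 7.2e-08) and *Ifih1* (1.57, adjusted p = 2e-06) were called, 2 of 3 nucleic acid sensors tested, and *Irf7* (1.27, adjusted p = 6.5e-05) was called, 1 of 19 adaptors and proximal kinases. MyD88 targets had 0 of 10 called with limma, 3 with an unadjusted p under 0.05 and a median of −0.01, with *Il6* at −0.63 (adjusted p = 0.011). Accessory proteins and inhibitors had 0 of 9 called each, with 1 lower under the wider rule and 1 at an unadjusted p under 0.05 in each, and the other Toll-like receptors 0 of 1.

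No microglia marker passed either rule between the activated genotypes. With limma 0 of 11 were called and 0 had an unadjusted p under 0.05, with a median log2 fold change of −0.12, and their sums of 374, 488 and 351 CPM in WT and 419, 311 and 336 in SOD1G93A libraries overlapped. *Sall1* was the most abundant in each, and 1 of 14 was at 0 in WT replicate 1 and in SOD1G93A replicate 3. Of the other cell type markers none was called, and under the wider rule astrocyte markers had 4 of 9 tested higher and 2 lower, those of the oligodendrocyte lineage 1 of 5 higher and 2 lower, and those of endothelial cells (1 tested), pericytes and fibroblasts (4) and neurons (3) had 1 lower each. The 10 astrocyte markers summed to 4543, 4566 and 4566 CPM in WT and to 4484, 4441 and 4526 in SOD1G93A activated astrocytes, *Slc1a3* the most abundant and none at 0. Those of the oligodendrocyte lineage summed to 193, 198 and 180 CPM in WT, with *Pdgfra* the most abundant, and to 174, 169 and 147 in SOD1G93A libraries, with *Cspg4*. Sex genes differed as well, with *Xist* higher (1.19, adjusted p = 2.6e-07) and all 4 Y-linked genes lower. The 5 sex genes summed to 681, 634 and 561 CPM in WT and to 1412, 1124 and 891 in SOD1G93A activated astrocytes, *Xist* the most abundant and none at 0. The part of these markers and sex genes in the values of the members, of which *Tlr7* is X-linked, was not tested.

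Whether the genotype difference itself differed between quiescent and activated astrocytes was tested as an interaction in the 12 libraries. With limma 0 of 8 members were called and 0 had an unadjusted p under 0.05, beside 0% of 12269 genes called, 0.277% under the wider rule and 8.30% at that unadjusted p, and edgeR and DESeq2 called 0 members and, among all genes, 4 and 21. The interaction was 0.19 for *Tlr3* (SE 0.16, adjusted p = 0.8), 0.15 for *Tlr4* (adjusted p = 0.91), −0.38 for *Tlr2* (SE 0.34, adjusted p = 0.8) and −0.12 for *Cd14* (adjusted p = 0.92). *Myd88* (0.15, adjusted p = 0.91), *Ly96* (−0.29, adjusted p = 0.91), *Tlr7* (−0.63, SE 0.57, adjusted p = 0.8) and *Ticam1* (−0.04, adjusted p = 0.97) completed the members tested. Without 1 library the interaction ranged from 0.12 to 0.27 for *Tlr3*, 0.0018 to 0.37 for *Tlr4*, −0.67 to 0.022 for *Tlr2*, −0.31 to 0.058 for *Cd14*, −0.068 to 0.36 for *Myd88*, −0.60 to −0.097 for *Ly96*, −0.955 to −0.21 for *Tlr7* and −0.12 to 0.095 for *Ticam1*. So the members that passed a rule in activated and not in quiescent astrocytes were not shown to differ between the states. The median was −0.08 over the members and 0.0023 over all genes. TRIF targets had 0 of 9 called, 6 at an unadjusted p under 0.05 and 5 past the wider rule, all with a larger genotype difference after activation, with a median of 1.24. They were *Ifit3* (2.05, adjusted p = 0.0044), *Ifit1* (1.98, adjusted p = 0.025), *Rsad2* (1.58, adjusted p = 0.031), *Cxcl10* (1.24, adjusted p = 0.049) and *Ifit2* (1.14, adjusted p = 0.021). The other lists of the pathway had 0 genes past either rule, with 0 of 1 other Toll-like receptors, 1 of 9 accessory proteins, 2 of 20 adaptors and proximal kinases, 3 of 9 inhibitors, 3 of 10 MyD88 targets and 0 of 4 nucleic acid sensors at an unadjusted p under 0.05. Astrocyte markers had 1 of 10 past the wider rule, while microglia markers and sex genes had 0 of 11 and 0 of 5, with 3 and 0 at an unadjusted p under 0.05. At that limit there were also 5 of 10 astrocyte markers, 2 of 3 neuron markers and 1 of 1 endothelial markers. Those of the oligodendrocyte lineage had 0 of 5 and those of pericytes and fibroblasts 0 of 3.

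In GRCm38 with the GENCODE M21 annotation, the members are spread over the genome. *Tlr1* (chromosome 5, 64924679 to 64933563) lies beside *Tlr6* (chromosome 5, 64952031 to 64960097), a close relative, and reads that fit both were not measured. *Tlr7* (chromosome X, 167304929 to 167330558) lies beside *Tlr8* (chromosome X, 167242696 to 167264329). *Tlr2* is on chromosome 3 (83836272 to 83841767), *Tlr3* on chromosome 8 (45395665 to 45411080) and *Tlr4* on chromosome 4 (66827584 to 66930284). Both *Tlr9* (106222598 to 106226883) and *Myd88* (119335934 to 119341411) are on chromosome 9. *Cd14* is on chromosome 18 (36725067 to 36726798), *Ly96* on chromosome 1 (16688051 to 16709611) and *Ticam1* on chromosome 17 (56269319 to 56276786). Exons of these genes, all protein-coding, cover from 1021 bases in *Ly96* to 5556 in *Tlr4*.

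The genes with the pattern most like each member were taken from 9923 genes over the 21 libraries by Pearson r on log2 CPM, as a description in which 2 cell types set most of the spread. *Tlr2* was most like *Irak2* (0.996), *Pik3r5* (0.994) and *Psmb8* (0.993), and *Cd14* like *Acsl5* (0.996), *B2m* (0.996) and *H2-D1* (0.995). *Tlr7* was most like *Arhgap27* (0.996), *Arhgap30* (0.996) and *Abcg1* (0.996), and *Tlr9* like *Fli1* (0.993), *Cd68* (0.992) and *Myo1f* (0.992). *Tlr1* was most like *Tnfrsf1b*, *Mmp13* and *Ccl3* (0.989 to 0.990), and *Tlr4* like *Runx1*, *Gcnt2* and *Arpc1b* (0.973 to 0.975). *Tlr3* had the lowest values, with *Igtp* (0.961), *Ddx58* (0.957) and *Nmi* (0.953). *Ly96* was most like *Fam214b* (0.988), *Birc3* (0.979) and *Eif6* (0.977), *Myd88* like *Tgif1*, *Nampt* and *Mdm2* (0.987 to 0.988), and *Ticam1* like *Ncf1*, *Ch25h* and *Vav1* (0.982 to 0.984). Between members r ran from 0.58, for *Tlr3* and *Tlr9*, to 0.99, for *Tlr2* and *Cd14*.

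Promoters, the 250 bases before a start that RefSeq gives the gene, were read for the members with an entry in the table of RefSeq promoters on GRCm38 used here, which are 6 of 10, with 7 promoters since *Tlr1* has 2. *Cd14*, *Ly96*, *Tlr4* and *Tlr7* are named only. Both strands were searched for the NF-κB consensus, for the interferon-stimulated response element (ISRE) as GAAA, any 2 bases and GAAA and for the core of the myeloid factor PU.1 as GAGGAA. Of 32851 promoters of 27025 genes, 3.90% held the first, 2.98% the second and 23.25% the third. Among the members the NF-κB consensus was found in *Tlr2* and *Tlr3*, the ISRE in *Myd88*, and the PU.1 core once each in *Tlr9*, *Ticam1* and 1 promoter of *Tlr1*. The promoters of the called genes *Tlr2* and *Myd88* and of *Tlr3* are shown, because of the members whose promoters were read these 3 rose in WT microglia after LPS and, under at least the wider rule, in activated WT astrocytes. The *Tlr2* promoter's given strand held 2 overlapping matches from −173 to −163 relative to that start, *Tlr3* held 1 match from −211 to −202 and *Myd88* 1 from −40 to −31, and the capitals mark them. The strand is minus for all 3, at chr3:83841609-83841858, chr8:45410381-45410630 and chr9:119340019-119340268. RefSeq and GENCODE place these starts differently, so that all of the windows of *Tlr3* and *Myd88* and part of that of *Tlr2* lie within the gene positions given above. A match describes these letters alone and is not evidence of binding.
Tlr2: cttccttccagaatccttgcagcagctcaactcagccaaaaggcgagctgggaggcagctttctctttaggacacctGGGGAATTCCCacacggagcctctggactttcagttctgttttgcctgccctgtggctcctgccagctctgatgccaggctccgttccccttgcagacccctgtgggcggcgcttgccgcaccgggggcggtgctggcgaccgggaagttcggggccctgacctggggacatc
Tlr3: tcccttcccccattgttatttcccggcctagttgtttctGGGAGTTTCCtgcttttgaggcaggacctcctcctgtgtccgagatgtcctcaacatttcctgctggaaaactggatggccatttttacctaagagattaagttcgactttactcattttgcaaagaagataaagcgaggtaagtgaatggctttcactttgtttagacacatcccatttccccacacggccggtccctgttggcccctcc
Myd88: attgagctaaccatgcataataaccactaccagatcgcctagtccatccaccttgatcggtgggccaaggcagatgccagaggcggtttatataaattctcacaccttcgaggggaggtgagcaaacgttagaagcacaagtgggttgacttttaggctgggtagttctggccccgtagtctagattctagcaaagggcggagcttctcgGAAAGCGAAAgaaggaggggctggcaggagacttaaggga

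Some genes of the family were at the edge of detection or absent. *Tlr11* had 0 reads in all 21 libraries, which allows up to 3 reads in each. *Tlr5*, the flagellin receptor, had at most 4 reads in a library and *Tlr12* at most 3. The inhibitor *Sigirr* had at most 2 reads. These 4 genes were not tested in any comparison.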

How the data were processed

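Astrocytes and microglia were profiled by strand-specific, paired-end polyA RNA-seq, which the authors aligned to mm10 with STAR, counted with RSEM and compared with DESeq2. In 6 tables, each for a comparison, the authors deposited a normalized count per library, a signal equal to the reads divided by a size factor of that comparison. The tables also hold the mean of the normalized counts, log2 fold changes with standard errors, test statistics and p values before and after adjustment, which were not used. Division by the smallest step between values turned 100% of a column's values into whole reads (tolerance 1e-06), and 0 values differed between tables. Libraries held 2016139 to 11570122 reads, and libraries of a condition varied beyond counting error (chi-square per degree of freedom 1.50 to 21.73).

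Libraries were grouped by genotype, cell type and state from the labels, 3 per condition. Within each comparison, limma 3.58.1 with an intensity trend was fitted in R 4.3.3 on log2(normalized count + 1) for genes with a mean of at least 10, with Benjamini-Hochberg adjustment over all genes tested. A gene could reach that mean through a single group, as *Ly96* did in astrocyte activation. The activation of SOD1G93A astrocytes and the interaction were fitted on recovered reads of 12 libraries, scaled by median of ratios. Genes were called at an adjusted p under 0.001 and over 2-fold, or by the wider rule at an adjusted p under 0.05. The fit was tested on simulated data. The added 1 shrinks fold changes of low counts.

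Alternatives were a pseudocount of 0.5 or 5, no minimum or a minimum of 10 in each library, TMM, edgeR 4.0.16 (quasi-likelihood), DESeq2 1.42.0, the wider rule, a block for the replicate number, and fits without each library. Levels are CPM of the recovered reads, or RPKM with exon lengths of GENCODE M21, and the annotation behind the authors' counts is not named, so exon lengths may differ from theirs.

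Named genes are the 10 members, and in the LPS and activation comparisons up to 3 called genes of a list with the largest rise and up to 3 with the largest fall, list genes never detected, marker genes, and the 3 genes most like each member. Genes named between genotypes and in the interaction, as well as *Tlr13*, were picked with their values in view. The lists are other Toll-like receptors (6), accessory and trafficking proteins (9), adaptors and proximal kinases (20), inhibitors (12), targets of the MyD88 branch (10) and of the TRIF branch (10), other nucleic acid sensors (4), sex genes (5) and markers of 8 cell types. Members and lists were chosen with earlier results of these data known. Levels were not tested between cell types, and the 3 samples without a column were left out.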

Additional observations from a re-analysis of the deposited data

Results flagged for a closer look

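In *Cd14* and *Myd88* the genotype difference went opposite ways in activated astrocytes and LPS microglia, with no overlap between the genotypes in either cell type, as in 244 of the 10069 genes tested in both (2.42%). *Cd14* had a log2 fold change of 0.34 in activated astrocytes, where all 3 SOD1G93A libraries were above all WT ones, and of −0.21 in LPS microglia, where all 3 were below. *Myd88* had 0.18 in activated astrocytes and −0.24 in LPS microglia, again with every SOD1G93A library above and below every WT library in turn. Without SOD1G93A LPS microglia replicate 3, the library that stood furthest apart, the microglia values were −0.0877 for *Cd14* and −0.0996 for *Myd88*. Of these 4 values, only the one of *Cd14* in activated astrocytes passed the wider rule (adjusted p = 0.014), and not without WT activated replicate 1 (0.131) or 3 (0.066). Whether the genotype difference differs between the cell types was not tested for either gene, and 3 of the 4 values passed neither rule. Conditions of 3 libraries are too small to test a single library for its distance from the others, so none was singled out that way.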

How the results depend on the processing

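Among 549 values of single members under other settings, 545 kept their direction and their side of the threshold and 3 became called, *Ly96* in WT astrocyte activation with edgeR and *Tlr3* in SOD1G93A LPS microglia against quiescent microglia with edgeR (1.43) and DESeq2 (1.44). The value that turned was *Ticam1* in SOD1G93A astrocyte activation with edgeR (−0.0017). Of 462 values without 1 library, 427 kept both, 8 were no longer called and 2 became called. The remaining 25 changed sign, or stood at 0 for *Ticam1* in WT astrocyte activation without WT activated replicate 2. None of the 25 was called. The count of members called was equal to that of the main fit, or close to it by a fixed ratio, in 50 of 54 fits without 1 library and in 70 of 72 other settings. It was 2 to 5 in WT astrocyte activation without 1 library (4 with all), where it was 2 without WT quiescent replicate 2 or any WT activated library and 5 without WT quiescent replicate 1, and 5 to 6 for SOD1G93A LPS microglia against quiescent microglia. At an adjusted p under 0.05 it was 4 for genotype in activated astrocytes and 8 for SOD1G93A LPS microglia against quiescent microglia, the 2 settings outside that ratio. Under the same rule 6 members passed in WT astrocyte activation (4 called) and 6 in SOD1G93A astrocyte activation (5 called). For LPS in WT microglia 7 passed higher and 1 lower (6 called). These differences lay within the ratio. Without 1 library the log2 fold change ranged from −0.46 to 0.29 for *Tlr7* and −0.080 to 0.14 for *Ticam1* in WT astrocyte activation, from −0.036 to 0.075 for *Ticam1* in SOD1G93A astrocyte activation, from −0.19 to 0.25 for *Myd88* between quiescent genotypes, and from −0.45 to 0.30 for *Tlr7* between activated genotypes. Between genotypes under LPS it ranged from −0.49 to 0.022 for *Tlr3*, −0.040 to 0.26 for *Tlr7*, −0.10 to 0.39 for *Tlr9* and −0.12 to 0.078 for *Ly96*. The interaction ranged from −0.67 to 0.022 for *Tlr2*, −0.31 to 0.058 for *Cd14*, −0.068 to 0.36 for *Myd88* and −0.12 to 0.095 for *Ticam1*. The causes of these turns were not tested. Counts of all genes called without 1 library were 1991 to 2334 for LPS, 1087 to 1547 for WT activation, 67 to 81 for genotype in activated astrocytes, 1263 to 2187 for SOD1G93A LPS against quiescent microglia, 1486 to 1580 for SOD1G93A activation and 0 to 6 for the interaction, with 6 without WT quiescent astrocyte replicate 1 and 1 without replicate 3. At an adjusted p under 0.05 the counts were 6185, 4722, 879, 5883, 5328 and 34 in that order, with 7 between quiescent genotypes and 1 between genotypes under LPS. DESeq2 called 7 and 3 in these and 21 in the interaction, for which edgeR called 4 and a pseudocount of 5 gave 3. With replicate numbers as a block, 100 genes were called for genotype in activated astrocytes, 0 between quiescent genotypes, between genotypes under LPS and in the interaction, and 2201 for LPS, 1423 for WT activation, 1588 for SOD1G93A LPS against quiescent microglia and 1576 for SOD1G93A activation. Every count of members called was unchanged with that block. In the 6 deposited comparisons, replicates of the same number had correlations of −0.07 to 0.06 across genes between groups, apart from −0.40, 0.06 and −0.44 between quiescent genotypes. So numbers do not pair the libraries of these comparisons. Between quiescent genotypes the highest across numbers were 0.52, for WT replicate 3 with SOD1G93A replicate 1, and 0.35, for WT replicate 1 with SOD1G93A replicate 3, and no fit paired them. Quiescent against activated SOD1G93A astrocytes were not checked in this way. TMM over all libraries moved 52 of 70 levels by more than 1 SD. Within comparisons it shifted the median of all genes by at most 0.024 in size. Depth limits *Tlr1* and *Tlr9* in astrocytes, which held 0.27 to 2.96 CPM.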

Other observations

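Markers of further cell types were counted beside the members. In LPS microglia, of the markers of monocytes and border macrophages 2 of 4 tested were called higher, and these summed to 5.61, 7.84 and 9.22 CPM in quiescent and 16.7, 16.7 and 16.9 in WT LPS libraries. Oligodendrocyte lineage markers had 2 of 2 called lower, with *Cspg4* the most abundant at 1202, 1238 and 1247 CPM in quiescent and 61.3, 66.9 and 68.5 in LPS libraries. Endothelial markers had 1 called higher and 1 lower of 2, markers of pericytes and fibroblasts 1 of 4 higher and astrocyte markers 2 of 9 higher, while those of neutrophils and neurons had too few reads to be tested. In activated WT astrocytes those of monocytes and neutrophils were too low to test. *Lyve1* and *Cldn5* had 0 reads in all 21 libraries, and *Ly6g* is not in the tables.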
